A study of Mus musculus with 12 samples.

Results

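The CCN family comprises Ccn1 to Ccn6, secreted matricellular proteins that sit in the extracellular matrix and signal to cells rather than serving as structural fibres. All 6 genes were found by symbol in the expression table, out of 55487 genes in all. They were measured in stromal cells sorted from spontaneous mammary tumours of 3 mice of the strain and genotype FVB MMTV-PyMT, 10 weeks old and untreated, a model in which the oncogene, polyoma middle T, is switched on in mammary epithelial cells by the MMTV promoter. Live cells that lacked CD45, CD31 and EPCAM and carried PDGFRb were split into 4 groups of cancer-associated fibroblasts, each with 3 libraries, 1 per mouse. The icaf gate was Ly6C-positive. The vcaf gate was Ly6C-negative, CD146-positive and PDGFRa-negative. The m2cafneg and m2cafpos gates were Ly6C-negative, CD146-negative and PDGFRa-positive, and were NCAM-negative or NCAM-positive. All groups share the oncogene, no normal mammary stroma was among these samples, and a single tumour model at a single age was sampled. Mice are named 27, 30 and 31 as in the sample titles, and 1 title that spells its gate "vacf" was read as vcaf.

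CCN proteins are built from a common set of modules, an insulin-like growth factor binding protein-like module, a von Willebrand factor type C module, a thrombospondin type 1 repeat and, except in CCN5, a C-terminal cystine knot. They bind integrins, heparan sulphate proteoglycans and growth factors. CCN1 (formerly CYR61) and CCN2 (formerly CTGF) are textbook targets of YAP and TAZ acting through TEAD factors, and also respond to serum response factor and, for CCN2, to TGF-beta. CCN4 and CCN5 (formerly WISP1 and WISP2) were first described as genes induced by Wnt1, CCN3 (formerly NOV) opposes CCN2 in several models of fibrosis, and loss of CCN6 (formerly WISP3) causes a human skeletal dysplasia.

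On GRCm38 (mm10), Ccn1 lies on chromosome 3 (145646976 to 145649981, minus strand), Ccn2 on chromosome 10 (24595442 to 24598683, plus strand) and Ccn5 on chromosome 2 (163820861 to 163833146, plus strand). Ccn3 (54745702 to 54754039) and Ccn4 (66891320 to 66923201) both lie on the plus strand of chromosome 15, and Ccn6 lies on the minus strand of chromosome 10 (39150970 to 39163794). The longest annotated coding sequence was 753 bases in Ccn5, which lacks the last module, against 1044 bases in Ccn2, 1062 in both Ccn3 and Ccn6, 1101 in Ccn4 and 1137 in Ccn1. Ccn2 overlaps the weakly read antisense transcript Gm15270, and the end of Ccn6 overlaps Tube1 on the other strand.

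RefSeq promoter windows (GRCm38.p6, 250 bases before the start site and 50 from it onward) were found for 2 of the 6 members, Ccn1 and Ccn6, and both are shown for that reason. Ccn1 had 56880 to 122978 reads per library and Ccn6 at most 26. Capitals mark matches, on either strand, to GGAATG (reverse complement CATTCC), the core bound by TEAD factors, and to the TATA box TATAAA (reverse complement TTTATA).
Ccn1, chr3:145649936-145650235, minus strand: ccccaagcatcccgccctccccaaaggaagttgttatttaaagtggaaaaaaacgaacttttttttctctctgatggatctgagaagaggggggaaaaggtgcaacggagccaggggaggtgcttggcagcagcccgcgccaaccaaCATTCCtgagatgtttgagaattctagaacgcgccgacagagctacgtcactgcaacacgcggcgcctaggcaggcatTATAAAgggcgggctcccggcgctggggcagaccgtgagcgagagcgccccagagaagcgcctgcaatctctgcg
Ccn6, chr10:39163745-39164044, minus strand: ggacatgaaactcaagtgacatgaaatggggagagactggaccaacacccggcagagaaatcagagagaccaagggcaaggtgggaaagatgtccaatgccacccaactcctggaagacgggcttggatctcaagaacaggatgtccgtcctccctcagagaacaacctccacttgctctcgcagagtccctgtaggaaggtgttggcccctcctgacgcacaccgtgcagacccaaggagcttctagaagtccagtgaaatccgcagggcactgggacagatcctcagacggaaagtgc
In Ccn1 the TEAD core began at position -103 from the start site and the TATA box at -25. The short cAMP response motif ACGTCA, also searched, began at -59. The Ccn6 window held none of these 3. Of 32817 promoter windows of the same length, 14.7% held the TEAD core, 13.6% the TATA box and 7.51% the short cAMP response motif. Neither window held the SMAD motif CAGACA (21.0% of all windows), the TCF/LEF motif CTTTGAT (3.73%), the AP-1 motif TGACTCA (5.20%) or the full cAMP response motif TGACGTCA (1.79%), all searched on both strands. The full motif contains the short one. These matches describe letters in the window and not binding.

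The libraries held 43898839 to 55363203 reads assigned to genes, and values are given as CPM (counts per 1000000 of those reads), so a read stood for 0.0181 to 0.0228 CPM. Errors are SD over 3 libraries for CPM and SE for differences. Transcripts of the sort proteins followed the gates, with Ly6c1 averaging 1106 ± 140.0 CPM in icaf against 31.3 to 66.3 in the other gates, Mcam (CD146) 269 ± 25.1 in vcaf against 3.44 to 9.82, Ncam1 at 585 ± 20.3 in m2cafpos against 31.1 ± 5.63 in m2cafneg, and Pdgfra at 6.73 ± 2.07 in vcaf against 403 to 537 in the other gates. Transcripts of other cell types were present although those cells were gated out, and their share was uneven. The summed CPM of 20 epithelial markers, all detected, ran from 21509 to 43840 in vcaf and 14801 to 32310 in m2cafneg, against 3152 to 8039 in icaf and 2278 to 7804 in m2cafpos, with Trf and Csn3 the most abundant. The sums of 20 endothelial markers were 241 to 334 CPM in m2cafpos and 316 to 484 in icaf, against 429 to 924 in m2cafneg and 1471 to 1762 in vcaf, led by Eng and Esam. By limma (adjusted p under 0.05), 5 of the 20 were higher and 1 lower in vcaf than in m2cafneg, and 14 were not called. Of all tested genes 26.6% were higher and 11.3% lower in that pair. The sums of 18 macrophage markers, led by Cd14 and Lyz2, were 637 to 1449.9 CPM in vcaf and 691 to 1093 in m2cafneg, against 111 to 244 in icaf and 172 to 253 in m2cafpos. Pericyte sums (14 genes, led by Rgs5 and Ebf1) were 37644 to 60090 CPM in vcaf and at most 910.2 elsewhere, and smooth muscle sums (14 genes, led by Acta2 and Cald1) were 3865 to 4312 CPM in vcaf and at most 956 elsewhere. Fibroblast sums (15 genes, led by Col1a1 and Col3a1) were 166105 to 174121 CPM in m2cafpos, 109337 to 118863 in icaf, 91898 to 122167 in m2cafneg and 12105 to 15011 in vcaf. Nerve markers (12 genes, led by Sox10 and Ngfr) summed to 35.6 to 269 CPM over all libraries, adipocyte markers (12, led by Fabp4 and Pnpla2) to 71.5 to 1102 and lymphocyte markers (12, led by Ighm and Cd3e) to 2.20 to 16.8. No marker of these 9 lists was at 0 in all libraries. In such sorted pools, a gene read in fewer cells and a gene read less per cell cannot be told apart.

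Compared per kilobase of annotated exon, Ccn1 and Ccn2 had the highest mean levels of the family in all 4 gates, although in icaf of mouse 30 Ccn5 (30.0% of the family) exceeded Ccn2 (17.0%). Ccn1 made up 46.8% to 51.6% of the summed length-scaled CPM of the family in icaf, 54.3% to 71.3% in m2cafneg, 28.2% to 40.7% in m2cafpos and 60.8% to 68.2% in vcaf. Ccn2 made up 42.9% to 52.4% in m2cafpos and 17.0% to 36.4% in the libraries of the other gates. The m2cafpos gate was the one in which Ccn2 exceeded Ccn1, with a Ccn2 to Ccn1 ratio per kilobase of 1.13 to 1.52, against 0.258 to 0.767 over the 9 other libraries. The ranges do not overlap. Ccn5 gave 14.6% to 30.0% of the family in icaf, 6.48% to 25.7% in m2cafpos, 5.85% to 8.66% in m2cafneg and 1.94% to 3.20% in vcaf. The largest share of Ccn4 was 4.16%, in m2cafpos of mouse 27, and that of Ccn3 was 3.62%, in icaf of mouse 27. The summed length-scaled level of the family was 1793 ± 217 CPM per kb in m2cafpos, 1457 ± 397 in vcaf, 1300.1 ± 174 in icaf and 1211 ± 68.1 in m2cafneg, and the vcaf range of 1128 to 1897 overlapped those of the other 3 gates.

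**Figure D1:**
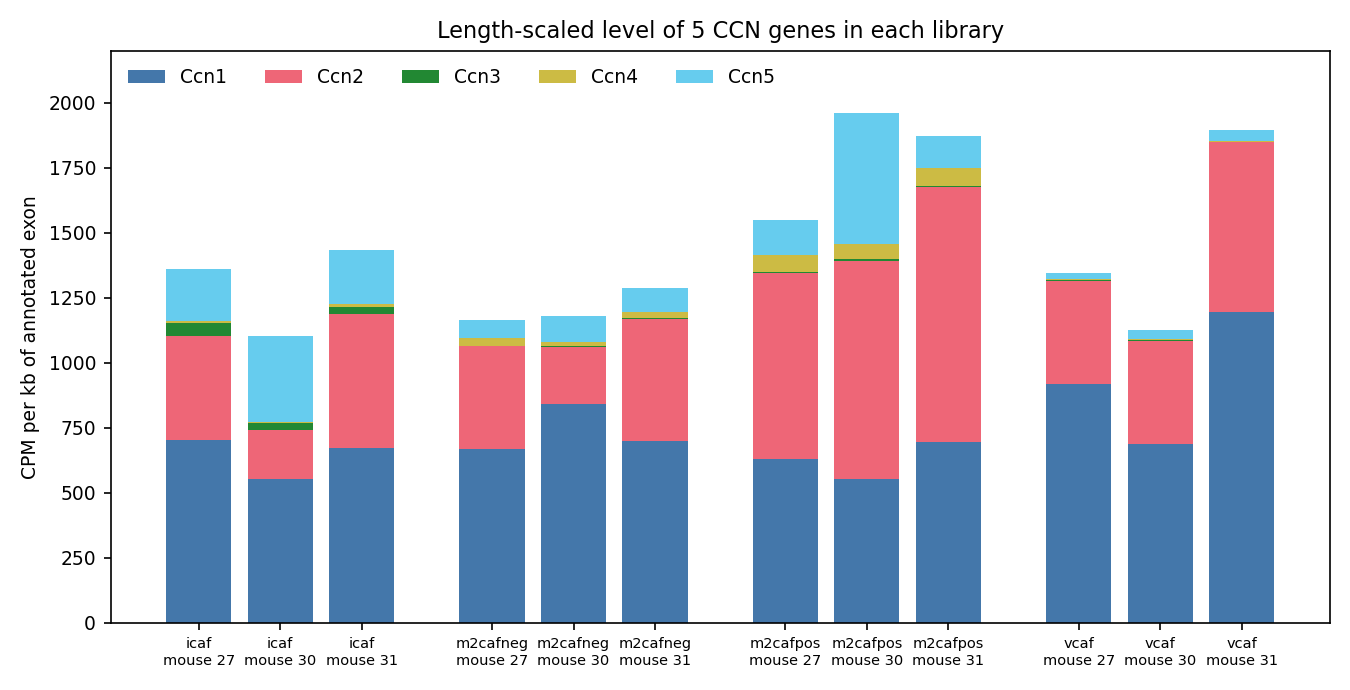
Stacked bars give CPM per kb of annotated exon for Ccn1 to Ccn5 in each of the 12 libraries, ordered by gate and mouse, with bar height the sum of the 5 genes (Ccn6 is too low to draw). Ccn1 and Ccn2 fill most of every bar, Ccn2 exceeds Ccn1 in the 3 m2cafpos libraries, and Ccn5 is largest in m2cafpos of mouse 30 (505 CPM per kb).

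Ccn1, an immediate-early gene whose product binds integrins and promotes adhesion and, in fibroblasts, senescence, was abundant in every library. It stood at 1418, 1118 and 1357 CPM in icaf of mice 27, 30 and 31, at 1346, 1699.8 and 1413 in m2cafneg, at 1271, 1116 and 1405 in m2cafpos, and at 1855, 1385 and 2410 in vcaf. The vcaf libraries of mice 27 and 31 were the highest of the 12, and all 4 gates overlapped. Its percentile among the 15456 tested genes ran from 99.36 in icaf of mouse 30 to 99.82 in vcaf of mouse 31. In order of the mean the gates were vcaf (1883 ± 513), m2cafneg (1486 ± 188), icaf (1298 ± 159) and m2cafpos (1264 ± 145), and no neighbours in this order differed past the test. On the scale of log2(CPM + 1), by limma with Benjamini-Hochberg adjustment over all tested genes, Ccn1 was higher in vcaf than in icaf by 0.51 (SE 0.19, adjusted p = 0.0372) and than in m2cafpos by 0.54 (SE 0.19, adjusted p = 0.0241), in 3 of 3 mice each. The median of all tested genes was itself higher in vcaf, by 0.36 against icaf and 0.51 against m2cafpos, and with libraries rescaled by median-of-ratios factors the Ccn1 differences became 0.09 (adjusted p = 0.740) and -0.0139 (adjusted p = 0.962). The vcaf against icaf call also ended without icaf of mouse 30 (adjusted p = 0.132) or 31 (0.0581), without vcaf of mouse 27 (0.0816) or 31 (0.161), and with no filter on low values (0.0887). The vcaf against m2cafpos call ended without m2cafpos of mouse 27 (adjusted p = 0.0522) or 30 (0.0862), without vcaf of mouse 27 (0.0567) or 31 (0.110), and with no filter (0.0633). Against m2cafneg the vcaf difference of 0.31 (95% interval -0.11 to 0.73, adjusted p = 0.213) did not pass the test, though it did without vcaf of mouse 30 (0.52, adjusted p = 0.0479). Among the remaining 3 pairs the Ccn1 differences lay between -0.23 and 0.20, with adjusted p values of 0.397 to 0.924.

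Ccn2, the profibrotic member that acts with TGF-beta on matrix production, was highest in the NCAM-positive gate. It stood at 2044, 2403 and 2807 CPM in m2cafpos of mice 27, 30 and 31, at 1136, 1142 and 1873 in vcaf, at 1149, 538 and 1475 in icaf, and at 1135, 622 and 1343 in m2cafneg. Every m2cafpos library was above the 9 others, while the other 3 gates overlapped. In icaf and m2cafneg mouse 30 was the lowest, and the highest library was 2.74 and 2.16 times the lowest, against 1.37 times in m2cafpos. Ccn2 was higher in m2cafpos than in icaf by 1.31 (SE 0.36, limma adjusted p = 0.0204) and than in m2cafneg by 1.29 (SE 0.36, adjusted p = 0.0234), that is 2.29 and 2.34 times in mean CPM, and in 3 of 3 mice. The call against icaf ended without icaf of mouse 30 (0.88, adjusted p = 0.0808) or m2cafpos of mouse 31 (1.19, 0.0747), and that against m2cafneg without m2cafneg of mouse 30 (0.96, 0.0786), m2cafpos of mouse 30 (1.28, 0.0570) or m2cafpos of mouse 31 (1.17, 0.0706). With no filter on low values, both calls ended (adjusted p = 0.0728 against icaf and 0.0804 against m2cafneg). The difference from vcaf, the next gate in order, was -0.83 for vcaf minus m2cafpos (SE 0.36) and just missed the threshold (adjusted p = 0.0584). It passed with mouse as a block (SE 0.23, adjusted p = 0.00571), with median-of-ratios scaling (-1.39, adjusted p = 0.00653), and without icaf of mouse 30 (0.0217) or 31 (0.0431), m2cafneg of mouse 30 (0.0370) or vcaf of mouse 31 (-1.07, 0.0339). The vcaf, icaf and m2cafneg gates did not differ past the test (differences 0.02 to 0.47, adjusted p values of 0.281 to 0.976), and the interval for vcaf against icaf reached from -0.32 to 1.26. The antisense transcript Gm15270 reached at most 1.94 CPM in any library.

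**Figure D2:**
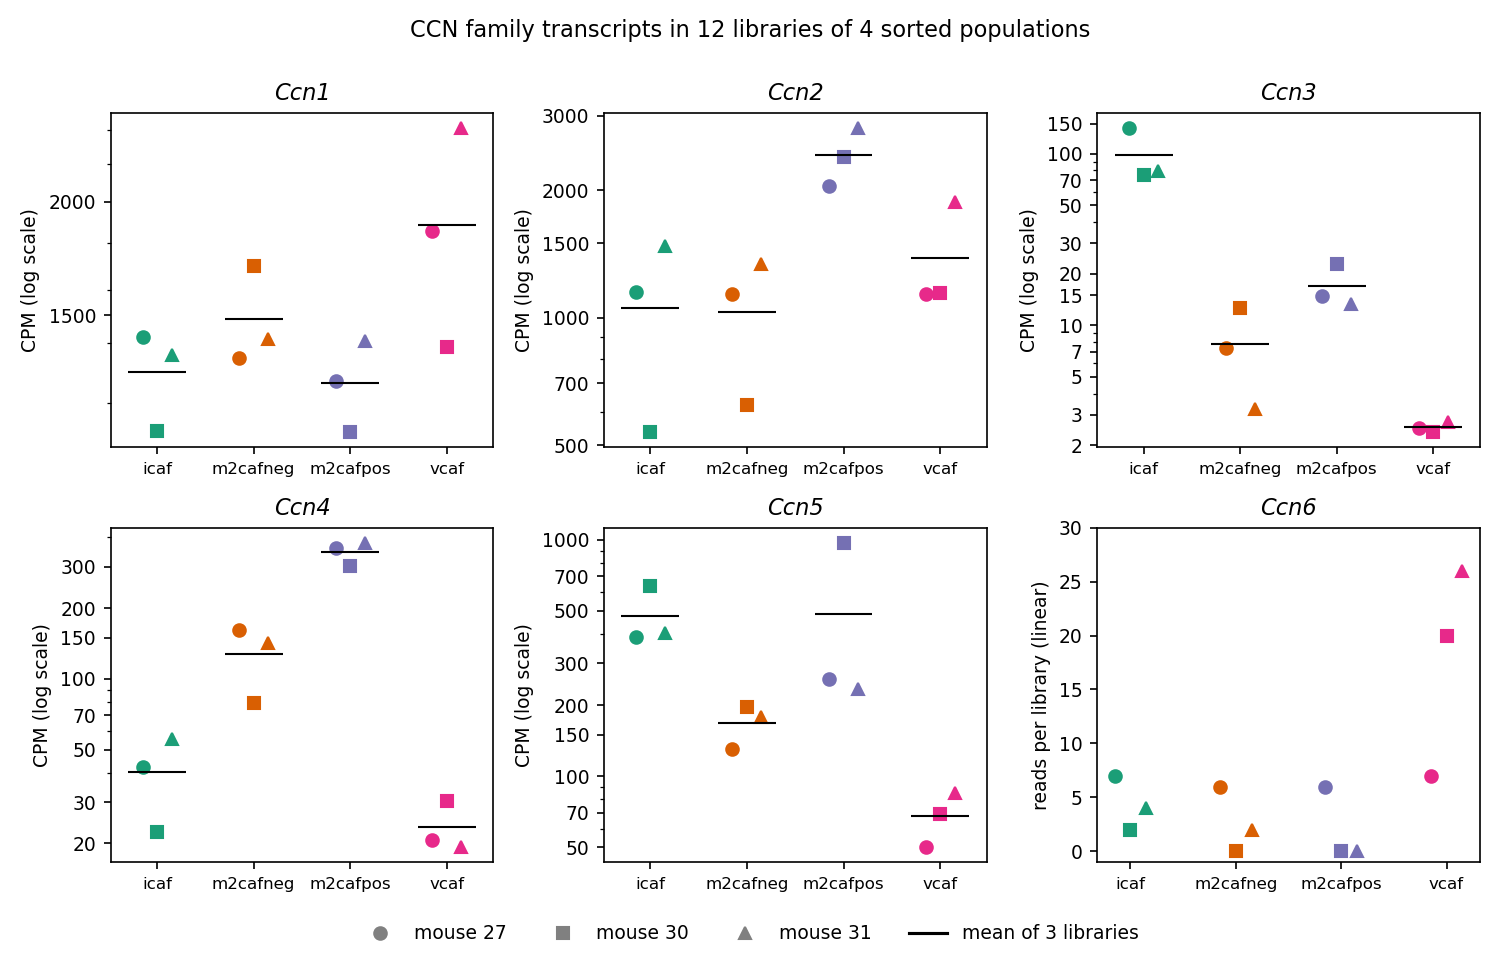
Each point is a library, by gate on the x axis and with mice as symbols and lines for the mean of 3 libraries. The y axis is CPM on a log scale with its own range for Ccn1 to Ccn5, and reads on a linear scale for Ccn6. Ccn2 and Ccn4 are highest in the 3 m2cafpos libraries, Ccn3 in the 3 icaf libraries, and Ccn5 is lowest in vcaf.

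Ccn4, a secreted protein named for its induction by Wnt1, was highest in the NCAM-positive gate and next highest in the NCAM-negative gate. It stood at 359, 303 and 379 CPM in m2cafpos of mice 27, 30 and 31, at 161, 79.3 and 142 in m2cafneg, at 42.3, 22.3 and 55.7 in icaf, and at 20.7, 30.3 and 19.3 in vcaf. The m2cafpos and m2cafneg libraries overlapped with no other gate, whereas icaf and vcaf overlapped, because icaf of mouse 30 was below vcaf of the same mouse. Ccn4 was 8.65 times higher in mean CPM in m2cafpos than in icaf (log2 difference 3.17, SE 0.32, limma adjusted p = 1.76e-05) and 2.71 times higher than in m2cafneg (1.49, SE 0.32, adjusted p = 0.00690), and it was higher in m2cafneg than in icaf by 1.68 (SE 0.32, adjusted p = 0.00190). In vcaf it was lower than in m2cafpos (-3.85, SE 0.32, adjusted p = 8.99e-07) and m2cafneg (-2.36, SE 0.32, adjusted p = 9.57e-05). These 5 calls held in 3 of 3 mice and in all 12 fits that left out a library. The vcaf minus icaf difference was -0.68 (SE 0.32) and did not pass the test (adjusted p = 0.0789). It passed with mouse as a block (adjusted p = 0.0470), with median-of-ratios scaling (-1.09, adjusted p = 0.0117) and without icaf of mouse 30 (-1.04, adjusted p = 0.00833) or m2cafneg of mouse 30 (0.0459).

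Ccn5, the member without the C-terminal module and often described as a counterweight to CCN2 in fibrosis, was high in icaf and m2cafpos and low in vcaf. It stood at 387, 638 and 404 CPM in icaf of mice 27, 30 and 31, at 258, 971 and 233 in m2cafpos, at 131, 197 and 178 in m2cafneg, and at 50.2, 69.4 and 84.7 in vcaf. Mouse 30 gave the highest value in icaf, m2cafneg and m2cafpos but not in vcaf, and the m2cafpos library of mouse 30 was 4.16 times the lowest library of its gate. The means of m2cafpos (487 ± 419) and icaf (476 ± 140.2) did not differ past the test (difference -0.26, 95% interval -1.20 to 0.69, adjusted p = 0.739), with m2cafpos higher in mouse 30 and lower in mice 27 and 31. Without m2cafpos of mouse 30 the difference became -0.92 and passed (adjusted p = 0.0257). Ccn5 was lower in vcaf than in icaf (-2.78, SE 0.44, limma adjusted p = 0.000182), than in m2cafpos (-2.52, SE 0.44, adjusted p = 0.000318) and than in m2cafneg (-1.31, SE 0.44, adjusted p = 0.0331), and lower in m2cafneg than in icaf (-1.47, SE 0.44, adjusted p = 0.0233), each in 3 of 3 mice. The vcaf against m2cafneg call ended without m2cafneg of mouse 30 (adjusted p = 0.0946) or 31 (0.0673) or vcaf of mouse 27 (0.112) or 30 (0.0671), and the m2cafneg against icaf call without icaf of mouse 30 (0.0902) or m2cafneg of mouse 27 (0.0729) or 31 (0.0526). With no filter on low values, both calls ended (adjusted p = 0.0985 for vcaf against m2cafneg and 0.0827 for m2cafneg against icaf). Ccn5 was also higher in m2cafpos than in m2cafneg in 3 of 3 mice with no overlap (1.22, SE 0.44), but the adjusted p was 0.0570. This difference passed with mouse as a block (adjusted p = 0.0117), with TMM scaling (1.47, adjusted p = 0.0391) and without m2cafpos of mouse 31 (1.58, adjusted p = 0.0312). It also passed with median-of-ratios scaling and with edgeR on whole reads, but not with an epithelial covariate. Without m2cafpos of mouse 30 it was 0.56 (adjusted p = 0.148).

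**Figure D3:**
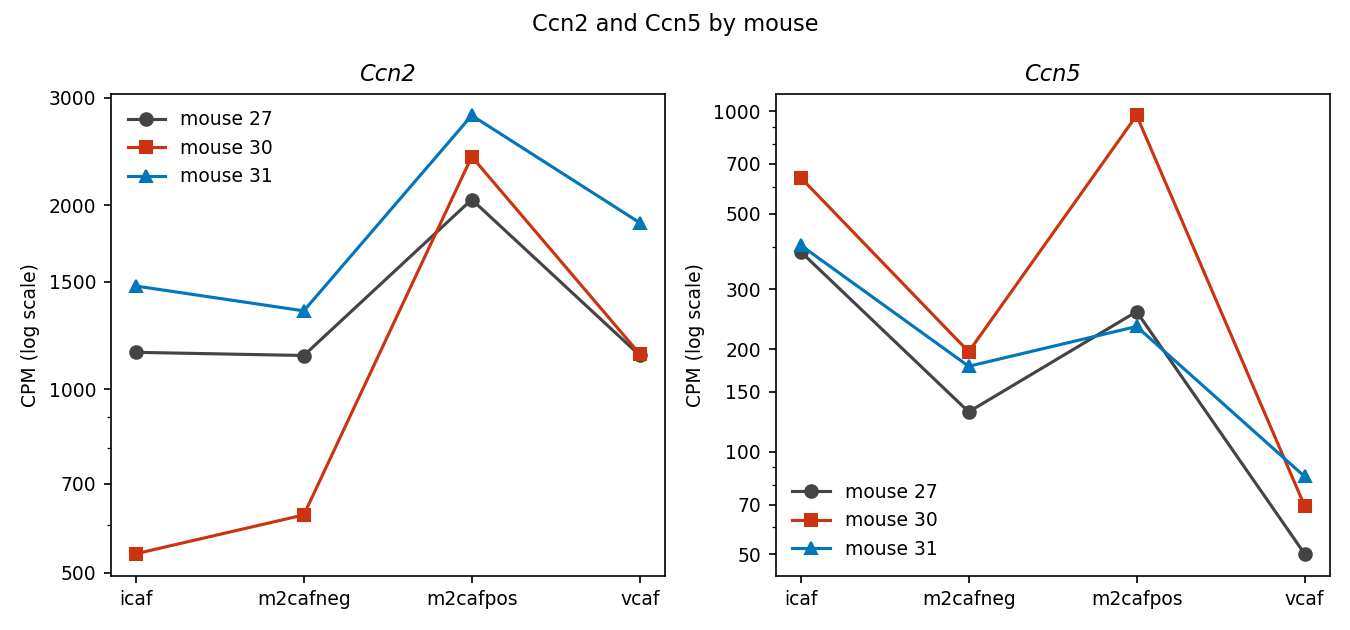
Lines join the 4 libraries of each mouse, with gate on the x axis and CPM on a log scale on the y axis, for Ccn2 (left) and Ccn5 (right). Mouse 30 has the lowest Ccn2 in icaf (538 CPM) and m2cafneg (622 CPM) and the highest Ccn5 in icaf (638 CPM) and m2cafpos (971 CPM).

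Ccn3, the member that opposes CCN2 signalling in several tissues, was highest in icaf. It stood at 142, 75.0 and 79.0 CPM in icaf of mice 27, 30 and 31, at 14.7, 22.8 and 13.4 in m2cafpos, at 7.40, 12.6 and 3.25 in m2cafneg, and at 2.52, 2.38 and 2.72 in vcaf. The 4 gates did not overlap with one another. In reads this was 3818 to 7450 per icaf library and 126 to 139 per vcaf library. Ccn3 differed from icaf by -4.75 in vcaf (SE 0.37, limma adjusted p = 4.58e-07), -3.60 in m2cafneg (SE 0.37, adjusted p = 3.26e-05) and -2.44 in m2cafpos (SE 0.37, adjusted p = 0.000384), and vcaf from m2cafpos by -2.31 (SE 0.37, adjusted p = 0.000172). These 4 calls held in all 12 fits that left out a library and in 3 of 3 mice. Because 1 CPM was added before taking logs, differences that involve the low vcaf and m2cafneg values are understated. The smaller steps were less secure. Ccn3 was lower in vcaf than in m2cafneg (-1.15, SE 0.37, adjusted p = 0.0269), a call that ended without m2cafneg of mouse 27 (0.0727) or 30 (0.108) or without vcaf of mouse 27 (0.0645), 30 (0.0655) or 31 (0.0508). It was higher in m2cafpos than in m2cafneg (1.16, SE 0.37, adjusted p = 0.0362), which ended without m2cafneg of mouse 27 (0.0591) or 31 (0.129), without m2cafpos of mouse 27 (0.0742), 30 (0.124) or 31 (0.0505), and with edgeR on whole reads (adjusted p = 0.0529). With no filter on low values, both of these calls ended (adjusted p = 0.0768 for vcaf against m2cafneg and 0.110 for m2cafpos against m2cafneg).

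Ccn6 was close to absent from these libraries. It had 7, 2 and 4 reads in icaf of mice 27, 30 and 31, 6, 0 and 2 in m2cafneg, 6, 0 and 0 in m2cafpos and 7, 20 and 26 in vcaf. The vcaf libraries of mice 30 and 31 were above all others, at 0.370 and 0.510 CPM. A count of 0 allows up to 3 reads, or 0.0675 CPM in m2cafneg of mouse 30, 0.0556 in m2cafpos of mouse 30 and 0.0683 in m2cafpos of mouse 31, and such limits cover counting error only. No library reached 1 CPM, so Ccn6 did not pass the filter on low values and was not tested in the main fit. The refit with no filter on low values did hold Ccn6. In that refit 3 members were called in vcaf against icaf, 2 against m2cafneg and 4 against m2cafpos. These counts can include Ccn6, which had at most 26 reads in any library. Tube1, which overlaps its end on the opposite strand, stood at 1.23 ± 0.925 CPM in icaf, 3.05 ± 0.160 in m2cafneg, 1.15 ± 0.483 in m2cafpos and 4.40 ± 0.617 in vcaf. How the counting treated strand is not given in the sources used here, so reads of the pair could not be told apart.

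The 5 members that passed the filter, which asked for 1 CPM or more in 3 or more libraries, were then set beside all 15456 tested genes, at a threshold of 0.05 for the adjusted p of limma. In m2cafpos against m2cafneg, Ccn2, Ccn3 and Ccn4 were higher and none was lower (3 and 0 of 5), while 3.51% of all genes were higher and 22.6% lower. The median difference was 1.22 over the members and -0.23 over all genes. In m2cafpos against icaf, Ccn2 and Ccn4 were higher and Ccn3 was lower (2 and 1 of 5), beside 8.86% and 15% of all genes. In m2cafneg against icaf, Ccn4 was higher and Ccn3 and Ccn5 lower (1 and 2 of 5), beside 20.9% and 8.77%. In vcaf against icaf, Ccn1 was higher and Ccn3 and Ccn5 lower (1 and 2 of 5), beside 46.1% and 13.9%. In vcaf against m2cafneg, none was higher and Ccn3, Ccn4 and Ccn5 were lower (0 and 3 of 5), beside 26.6% and 11.3%. In vcaf against m2cafpos, Ccn1 was higher and Ccn3, Ccn4 and Ccn5 lower (1 and 3 of 5), beside 55.5% and 12.4%. All-gene shares changed with the scaling. Median-of-ratios scaling sets the typical gene near no difference, which by itself pulls the shares towards balance, and the cause of the lean was not tested. With median-of-ratios scaling, higher and lower calls were 8.31% and 8.53% of genes in m2cafpos against m2cafneg, 11.5% and 9.75% in m2cafpos against icaf, and 16.5% and 13.5% in m2cafneg against icaf. For vcaf they were 24.4% and 24.2% against icaf, 9.83% and 15.6% against m2cafneg, and 22.9% and 23.3% against m2cafpos. That scaling moved the median of all genes by -0.37, -0.24 and -0.48 in these vcaf comparisons, by -0.12 in m2cafneg against icaf, 0.11 in m2cafpos against icaf and 0.24 in m2cafpos against m2cafneg. With median-of-ratios scaling, 3 members were called in vcaf against icaf, 3 against m2cafneg and 4 against m2cafpos. The counts were 3 in m2cafneg against icaf, 3 in m2cafpos against icaf and 4 in m2cafpos against m2cafneg. Ccn1 was then not called in vcaf against icaf or m2cafpos. Ccn4 was called lower in vcaf than in icaf, and Ccn2 lower in vcaf than in m2cafpos. Pairs with a gate in common share its libraries, so their counts are not independent.

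**Figure D4:**
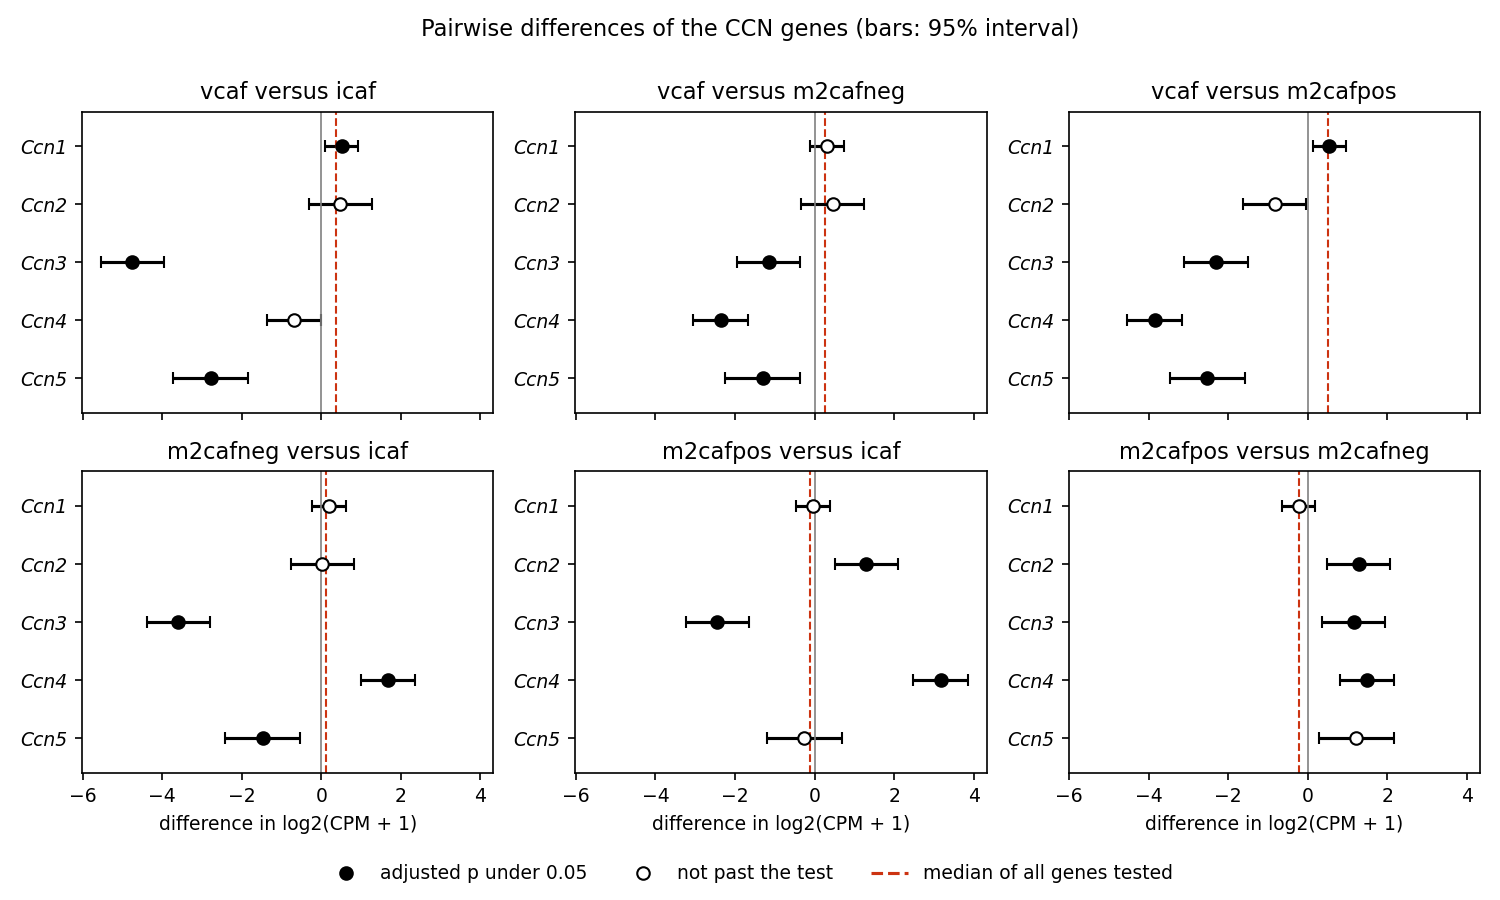
Each panel is a pair of gates, the x axis is the difference in log2(CPM + 1), first gate minus second, and points are Ccn1 to Ccn5 with 95% intervals (filled where the limma adjusted p is under 0.05). The dashed line is the median of all tested genes, which lies at 0.51 in vcaf versus m2cafpos, next to Ccn1 (0.54) and far from Ccn4 (-3.85).

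Epithelial and macrophage transcripts were high in the same gates, vcaf and m2cafneg, in which Ccn5 was low. With the mean log2 level of the epithelial list as a covariate, Ccn4 stayed higher in m2cafpos than in icaf (3.15, limma adjusted p = 1.05e-05) and lower in vcaf than in m2cafpos (-4.51, adjusted p = 0.000223), and Ccn3 stayed lower than in icaf in m2cafpos (-2.41, adjusted p = 5.69e-05), m2cafneg (-2.41, adjusted p = 0.0262) and vcaf (-3.33, adjusted p = 0.00181). Ccn2 stayed higher in m2cafpos than in icaf (1.28, adjusted p = 0.0112), but against m2cafneg its difference was 2.16 with an adjusted p of 0.0853. Under the same covariate the calls for Ccn4 in m2cafneg against icaf (1.11, adjusted p = 0.340) and in m2cafpos against m2cafneg (2.04, adjusted p = 0.0796) ended. For Ccn5, those in vcaf against icaf (-1.52, adjusted p = 0.202), vcaf against m2cafpos (-1.29, adjusted p = 0.229) and m2cafneg against icaf (-0.42, adjusted p = 0.831) ended. Calls also ended for Ccn1 in vcaf against icaf (0.14, adjusted p = 0.832) and m2cafpos (0.18, adjusted p = 0.744) and for Ccn3 in vcaf against m2cafpos (-0.92, adjusted p = 0.245). The Ccn3 difference between m2cafpos and m2cafneg went to -0.00133 (adjusted p = 0.999). In vcaf against m2cafneg the number of members called stayed at 3. In vcaf against m2cafpos it was 2, namely Ccn4 and Ccn2, and Ccn2 was not called there without the covariate. The covariate itself differed between gates, and its part in the results was not tested.

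Other genes of the pathways that act on CCN members were then counted, with shares of all genes as given above for each pair. Counts of 3 or fewer moved by up to 3 genes when a library was left out. Of 20 other YAP/TAZ-TEAD targets, 19 were tested. In m2cafpos against icaf 5 were higher and 6 lower (3 lower without icaf of mouse 27), and in m2cafpos against m2cafneg 3 were higher and 3 lower (1 higher without m2cafneg of mouse 27 or 30 or m2cafpos of mouse 27 or 31), with medians of -0.03 and -0.02. With median-of-ratios scaling these became 5 higher and 4 lower (median 0.06) and 5 higher and 2 lower (median 0.26). In vcaf against icaf 7 were higher and 5 lower (median 0.17, and 6 and 6 with a median of -0.24 under that scaling), and in vcaf against m2cafpos 8 were higher and 4 lower (median 0.36), which turned to 5 higher and 8 lower (median -0.19) with median-of-ratios scaling. Between m2cafneg and icaf 4 were higher and 5 lower (3 and 7 with median-of-ratios scaling), and in vcaf against m2cafneg 8 were higher and 3 lower (7 and 5 with median-of-ratios scaling). The receptor tyrosine kinase gene Axl, the most abundant of them, was highest in icaf (1389 ± 194 CPM) and lowest in vcaf (324 ± 48.4), an order shared by neither Ccn1 nor Ccn2. The tissue factor gene F3 was highest in m2cafneg (157 to 180.4 CPM) and lowest in vcaf (44.8 ± 12.2). It did not differ past the test between m2cafneg and icaf (0.38, limma adjusted p = 0.372) or vcaf and m2cafpos (-0.65, 0.0682). Rbms3 and Myof, which encode an RNA-binding protein and myoferlin, lay within 115 to 173 and 53.5 to 90.9 CPM. Myof was lower in m2cafneg than in icaf (-0.60, adjusted p = 0.00778). It was higher in vcaf (0.77, 0.00125) and m2cafpos (0.41, 0.0499) than in m2cafneg, and in vcaf than in m2cafpos (0.36, 0.0416). For Myof, neither vcaf nor m2cafpos differed from icaf past the test (0.17, 0.314 and -0.18, 0.404).

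Genes of the Hippo pathway and the TEAD factors were tested in full (19 of 19). In vcaf 13 were higher and 1 lower than in icaf (9 and 3 with median-of-ratios scaling), 14 and 1 against m2cafpos (3 and 2), and 8 and 1 against m2cafneg (2 and 1, and 5 higher without m2cafneg of mouse 27 or vcaf of mouse 27 or 30). In m2cafneg against icaf 8 were higher and 1 lower (5 higher without icaf of mouse 30, 4 without m2cafneg of mouse 31). In m2cafpos 5 were higher and 2 lower than in icaf, and 1 higher and 2 lower than in m2cafneg. Wwtr1, which encodes the coactivator TAZ, was at 38.7 ± 1.17 CPM in icaf, 58.8 ± 10.6 in m2cafneg, 66.8 ± 1.33 in m2cafpos and 68.8 ± 19.7 in vcaf. It was higher in m2cafpos than in icaf by 0.77 (limma adjusted p = 0.00612), and Amotl1, an angiomotin family gene, by 0.79 (adjusted p = 0.00830). Vgll4, which encodes a TEAD cofactor that competes with YAP, was higher there by 0.76 (adjusted p = 0.00328), and Taok1, an upstream kinase gene, differed by -0.34 (adjusted p = 0.0633).

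Acta2, Actg2, Tagln and Cnn1 were on both the smooth muscle list and the list of 15 cytoskeletal genes linked to serum response factor and its cofactors. These 15 genes were mostly higher in vcaf. Of these, 14 were higher in vcaf than in icaf and 0 lower, and 14 were higher and 1 lower than in each of m2cafneg and m2cafpos, with medians of 2.00, 1.94 and 1.42. Acta2, the smooth muscle actin gene, was at 1921 ± 79.4 CPM in vcaf and 218 ± 69.7 in m2cafpos, and Tpm1 (a tropomyosin gene), Flna (filamin A) and Myh9 (a non-muscle myosin heavy chain) were also highest in vcaf, at 908 ± 47.0, 806 ± 58.6 and 791 ± 119.8 CPM. In m2cafpos 6 were higher and 0 lower than in icaf, and 6 higher and 1 lower than in m2cafneg (9 and 0 with median-of-ratios scaling). Acta2 rose there by 2.50 (limma adjusted p = 0.000917) and 1.89 (adjusted p = 0.00863). In m2cafneg against icaf 3 were higher and 2 lower, a count of higher genes that was 1 without icaf of mouse 30, 5 without m2cafneg of mouse 30 and 0 without m2cafneg of mouse 31. With median-of-ratios scaling 1 was higher and 3 were lower.

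Genes of the TGF-beta response, of which Col1a1 and Col3a1 are also on the fibroblast list, were mostly higher in m2cafpos and lower in vcaf. All 16 were tested, and 10 were higher and 1 lower in m2cafpos than in m2cafneg (median 0.72, 5 higher without m2cafpos of mouse 27 or without the filter on low values), as well as than in icaf (median 1.18). In m2cafneg against icaf 7 were higher and 2 lower (median 0.62). In vcaf 9 were lower and 5 higher than in icaf (9 and 3 with median-of-ratios scaling), 10 lower and 2 higher than in m2cafneg, and 12 lower and 0 higher than in m2cafpos (medians -0.77, -1.43 and -2.21). Col1a1, the main fibrillar collagen gene, stood at 101468 ± 7685 CPM in m2cafpos, 48596 ± 8644 in m2cafneg, 30943 ± 798 in icaf and 6882 ± 1037 in vcaf. Postn (periostin, another matricellular gene) stood at 6375 ± 707 CPM in m2cafpos, 3691 ± 1098 in m2cafneg, 1355 ± 343 in icaf and 538 ± 81.0 in vcaf, which is the order of Ccn4. Bgn, a small proteoglycan gene, was also highest in m2cafpos (10862 ± 773 CPM), while Col3a1 was highest in icaf (24550.3 ± 1745 CPM). For Col3a1, m2cafpos (-0.15, limma adjusted p = 0.693) and m2cafneg (-0.58, adjusted p = 0.0739) did not differ from icaf past the test.

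Immediate-early and dissociation stress genes, which respond to the handling of tissue as Ccn1 does, were all tested (19 of 19). They were lower in m2cafpos than in m2cafneg for 16 genes and higher for 0 (median -0.98, and 11 and 0 with median-of-ratios scaling), and higher in m2cafneg than in icaf for 12 and lower for 1 (median 0.88). In vcaf 13 were higher and 2 lower than in icaf (7 and 2 with median-of-ratios scaling), and 15 higher and 2 lower than in m2cafpos (8 and 2). In vcaf against m2cafneg 1 was higher and 4 lower, and in m2cafpos against icaf 1 was higher and 5 lower. The 4 became 2 without m2cafneg of mouse 30, or any m2cafpos or vcaf library, and the 5 became 3 without any icaf library or m2cafpos of mouse 27 or 31. With mouse as a block the 1 gene higher in m2cafpos than in icaf became 2. Fos, an AP-1 subunit gene, ran at 2006.5 ± 202 CPM in m2cafpos, 2486 ± 267 in icaf, 3584 ± 408 in m2cafneg and 4181 ± 486 in vcaf, and the means of Ccn1 had the same order. Zfp36 and Jun, an RNA decay factor and the other AP-1 subunit, were highest in m2cafneg (3376 ± 817 and 3492 ± 777 CPM), and the phosphatase gene Dusp1 was lowest in m2cafpos (1691 ± 133 CPM). Dusp1 did not differ past the test between vcaf and m2cafpos (0.14, limma adjusted p = 0.608).

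Wnt/beta-catenin target genes, of the pathway for which Ccn4 and Ccn5 were first named, were mixed. Of 15, 11 were tested and Sp5 had no read in any library. In m2cafpos 3 were higher and 2 lower than in icaf, and 1 higher and 4 lower than in m2cafneg (2 lower without m2cafpos of mouse 27, and 1 and 2 with median-of-ratios scaling). Between m2cafneg and icaf 6 were higher and 2 lower. In vcaf 5 were higher and 3 lower than in icaf, 2 and 2 against m2cafneg (1 and 3 with median-of-ratios scaling), and 5 and 3 against m2cafpos (3 and 3). Nkd2, a feedback inhibitor of Wnt signalling, was the most abundant, at 563 ± 105 CPM in m2cafpos, 471 ± 205 in m2cafneg, 93.6 ± 17.0 in vcaf and 60.1 ± 23.2 in icaf. It was higher in m2cafpos than in icaf by 3.27 (limma adjusted p = 3.32e-05), near the 3.17 of Ccn4, but the gap to m2cafneg of 0.36 did not pass the test (adjusted p = 0.487). The cyclin gene Ccnd1 was highest in vcaf (131 ± 35.3 CPM), the Wnt antagonist gene Dkk2 was lowest there (1.93 ± 1.12 CPM), and the receptor-degrading ligase gene Znrf3 ran from 14.3 ± 0.789 CPM in icaf to 27.9 ± 4.70 in vcaf.

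Receptors and binding partners of CCN proteins were read in all gates, with 20 of 22 tested. In vcaf 8 were higher and 9 lower than in icaf (5 and 9 with median-of-ratios scaling), 6 and 7 against m2cafpos, and 4 and 6 against m2cafneg (1 and 10 with that scaling). The 4 became 2 without m2cafneg of mouse 27 and 1 without m2cafneg of mouse 30 or vcaf of mouse 27 or 30. In m2cafpos 3 were higher and 7 lower than in icaf, and 4 higher and 6 lower than in m2cafneg (6 and 3 with median-of-ratios scaling). The latter counts fell to 2 higher without m2cafneg of mouse 30, to 1 higher without m2cafneg of mouse 31 or m2cafpos of mouse 27 or 31, and to 3 lower without m2cafpos of mouse 31. In m2cafneg against icaf 5 were higher and 3 lower. Lrp1, an endocytic receptor for CCN2, was at 1383 ± 211 CPM in m2cafpos, 1163 ± 71.5 in icaf, 965 ± 54.6 in m2cafneg and 238 ± 43.3 in vcaf. Sdc4, a heparan sulphate co-receptor, went the other way and was lowest in m2cafpos, at 212 ± 67.4 CPM, against 884 ± 189 in vcaf and 765 ± 115 in m2cafneg. Fn1 (fibronectin) was highest in icaf, at 5785 ± 505 CPM, and Dcn (decorin) was at 6030.1 ± 439 in icaf, 5856 ± 3219 in m2cafneg, 2256 ± 226 in m2cafpos and 65.7 ± 24.1 in vcaf.

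With the epithelial covariate, the pathway counts in m2cafpos against icaf were the same except that 2 rather than 1 immediate-early genes were higher. In m2cafpos against m2cafneg, 0 TGF-beta genes were then higher, 2 immediate-early genes were lower, and each other list kept at most 1 call in either direction. In m2cafneg against icaf, 6 immediate-early genes were higher and every other list had at most 1 call in either direction. The serum response factor genes stayed higher in vcaf for 10 of 15 against icaf and 11 of 15 against m2cafpos, and 11 of 16 TGF-beta genes stayed lower in vcaf than in m2cafpos. Hippo pathway genes higher in vcaf fell to 3 of 19 in both comparisons.

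The genes most like each member were taken as the 5 with the highest Pearson r on log2(CPM + 1) over the 12 libraries, among 9796 genes of at least 10 CPM in their highest gate. These r describe libraries that share mice, gates and scaling. For Ccn4 they were Serpina3h (a serpin with close paralogs), Gask1b, Bdnf, Kif26b and Bpgm, all at r = 0.98. Kif26b, a kinesin gene, was at 77.7 CPM in m2cafpos, 21.5 in m2cafneg, 2.38 in icaf and 2.45 in vcaf, and Bdnf, a neurotrophin gene, was at 27.3, 11.0, 5.56 and 2.44. For Ccn3 they were Akr1c18, Ndrg4, Pgm3, Emb and Kng2 (r = 0.97 to 0.98), and Akr1c18, a steroid dehydrogenase gene, was at 145 CPM in icaf, 8.94 in m2cafpos, 4.12 in m2cafneg and 0.236 in vcaf. For Ccn5 they were Pxk, Pdgfd, Angpt4, Plagl1 and Tcta (r = 0.93 to 0.94), of which the growth factor gene Pdgfd was at 66.3 CPM in icaf and 31.8 in m2cafpos against 14.9 in m2cafneg and 5.85 in vcaf. For Ccn2 the r were lower, from 0.81 to 0.88, for Tln2, B4galt7, Fat1, Tnc and Casp8. The matricellular gene Tnc (tenascin C) was at 1693 CPM in m2cafpos and 146 to 253 in the other gates. For Ccn1 they were Gpaa1, Yju2, Pex14, Mms19 and Ccnf (r = 0.90 to 0.92), genes of GPI anchor attachment, splicing, peroxisomes, iron-sulphur protein assembly and the cell cycle, of which Ccnf was at 13.0 CPM in vcaf and 3.08 in m2cafpos. Between members, r was 0.81 for Ccn3 with Ccn5, 0.58 for Ccn2 with Ccn4, 0.03 for Ccn1 with Ccn2 and -0.71 for Ccn1 with Ccn5.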

How the data were processed

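The authors deposited 1 table of CPM, reads divided by the total assigned to genes in each of 12 libraries. Per the submitters' processing notes bcl2fastq, DRAGEN and mm10 were used, with no versions. For the counting tool, strand handling and annotation release, the sources used here give nothing. Of 55774 lines, 287 repeated a gene with the same values and were dropped. All values (100%) were whole multiples of 1 read within 0.001 reads, which gave reads per gene.

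The filter kept 15456 genes that reached 1 CPM in 3 or more libraries. On log2(CPM + 1), the test was the two-sided moderated test of limma 3.58.1 (R 4.3.3, eBayes with trend), all 4 groups in 1 fit without a block. The script was tested on simulated data. Alternatives were pseudocounts of 0.5 and 0.1 CPM, no filter or 5 CPM, TMM and median-of-ratios scaling, mouse as a block, an epithelial covariate, edgeR 4.0.16 (quasi-likelihood, TMM) on the recovered reads, and leaving out each library. Lengths and positions came from GENCODE M21.

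The members and gene lists were chosen with earlier results of these data known. All 6 members were named, with the 4 most abundant genes of each pathway list, the 2 most abundant of each cell type list, the sort genes and the 5 genes most correlated with each member that reached 10 CPM. Sample numbers were read as mice, since 3 mice and 3 numbers are given. Deviations from gate means correlated between same-numbered libraries with a median r of 0.293 (0.0843 to 0.452), against -0.149 between others, and 12 of 12 libraries correlated best with their own number. Centring within gates of 3 libraries makes the second value negative when the first is positive. The check cannot tell mouse from another batch shared by number. Whether tumours of a mouse were pooled is not stated. The p-values of the main fit measure the spread between the 3 mice within gates, pooled over the 4 gates. They leave out the pairing of libraries by mouse, which only the block uses.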

Additional observations from a re-analysis of the deposited data

How the results depend on the processing

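Of 630 refits of the 30 member comparisons, 531 kept their direction and side of the threshold, 53 lost and 22 gained a call, and 24 turned in sign. No call turned in sign except Ccn1 in vcaf against m2cafpos and Ccn3 in m2cafpos against m2cafneg. Other pseudocounts and the 5 CPM filter changed none. Mouse as a replicate block (pairing by mouse) added 3 calls and ended none, giving 4, 5 and 4 members called in vcaf against icaf, vcaf against m2cafpos and m2cafpos against m2cafneg. Over all genes the block raised the calls in these pairs too, from 9265 to 9779, 10492 to 10990 and 4041 to 5128. With the epithelial covariate the members called were 1 in vcaf against icaf, 2 in vcaf against m2cafpos, 1 in m2cafneg against icaf and 0 in m2cafpos against m2cafneg, and without a filter on low values 1 in the last. Leaving out a library gave 1 to 3 members in vcaf against m2cafneg and 1 to 3 in m2cafpos against m2cafneg.

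Signs turned as follows. Ccn1: vcaf against m2cafpos, -0.0139 (median-of-ratios), m2cafneg against icaf, -0.11 (covariate), m2cafpos against icaf, 0.0861 (TMM), 0.101 (median-of-ratios), 0.0966 (edgeR) and -0.14 to 0.05004 (leaving out a library); m2cafpos against m2cafneg, 0.0206 (TMM), 0.0481 (median-of-ratios), 0.0701 (covariate) and 0.0244 (edgeR). Ccn2: vcaf against icaf, -0.60 (covariate) and -0.0137 (edgeR); m2cafneg against icaf, -0.11 (TMM), -0.12 (median-of-ratios), -0.88 (covariate), -0.16 (edgeR) and -0.41 to 0.35 (leaving out a library). Ccn3 in m2cafpos against m2cafneg went to -0.00133 (covariate), and Ccn5 in m2cafpos against icaf to 0.16 (edgeR) and -0.92 to 0.11 (leaving out a library). The cause was not tested.

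Over all genes, edgeR called 3758 in vcaf against m2cafneg (limma 5861), 6913 in vcaf against m2cafpos (10492) and 2088 in m2cafpos against m2cafneg (4041), and 7297, 4245 and 3071 in the other pairs (9265, 4594 and 3692). In m2cafpos against m2cafneg 2584 genes were called with TMM, 2603 with median-of-ratios scaling and 2617 with no filter, and 2403, 2253 and 2600 without m2cafneg of mouse 31, m2cafpos of mouse 27 or m2cafpos of mouse 30. The covariate left 2592, 4074, 404 and 192 genes in vcaf against icaf, vcaf against m2cafpos, m2cafneg against icaf and m2cafpos against m2cafneg. Depth limits what can be said of Ccn6.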
